A study of Mus musculus with 192 samples.

Results

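The comparison set voxels of grid row G against their neighbours in row F of the mouse brain, at columns 3 to 9. A voxel is a small cube of tissue cut on a grid, here with rows A to G and columns 1 to 11. Members were taken from the sample titles: a column entered where both rows had an array in the same dataset, and G8 of dataset 3, with its pair, was left out because many of its values were missing. This gave 19 pairs, 7 in dataset 1, 7 in dataset 2 and 5 in dataset 3, or 38 of the 192 arrays of the series.

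Each array set total RNA of 1 voxel against total RNA of whole mouse brain in the other colour. All voxels and the whole brain reference came from C57BL/6 males at postnatal day 56, with no other treatment, allele or agent named for any sample. The label protocol mentions LiCl treatment, which appears in no sample. The 3 datasets were harvested independently, and the labels call the voxel RNA pooled without giving the number of brains. Voxel RNA carried Cy3 in datasets 1 and 3 and Cy5 in dataset 2, so dye and dataset cannot be told apart, but both rows of a dataset carried the same dye. The labels give no anatomical directions, so the rows are called by their letters.

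Values are log2 ratios that the authors had centred on each gene's own median over all arrays, so a level of 0 is the middle of that gene's values in the grid, and levels of different genes cannot be compared. Which channel is the numerator is not given in the sources used here. A higher value likely means more RNA in the voxel, as genes known from cortex, below, were high in rows F and G together, a basis chosen after the values were seen. That reading takes rows F and G to hold cortex. Differences are row G minus row F on the log2 scale, averaged over the columns of a dataset, and are given as a mean with the SD over the 3 datasets. They were tested with limma, two-sided, with Benjamini-Hochberg adjustment over all 13550 genes measured in both rows, and a gene passed at an adjusted p under 0.05. The dataset is the replicate, because columns of one dataset share their source.

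As background, the neocortex is a layered sheet. Its upper layers hold neurons that project mainly within the cortex and its deep layers those that project to the thalamus, brainstem and spinal cord, while the outermost layer has few neurons and is covered by the meninges. Myelin, the lipid-rich wrapping that oligodendrocytes lay around axons, is dense in the white matter below the cortex and becomes sparser towards the surface. Fewer cells of a type and less RNA per cell cannot be told apart in such pieces of tissue.

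The arrays of the rows differed in quality from dataset to dataset. The spread, taken as the median absolute deviation over the rows of an array, had a median of 0.247 in row G and 0.399 in row F in dataset 1, 0.202 and 0.234 in dataset 2, and 0.392 and 0.191 in dataset 3. The share of values missing or at the floor had medians of 0.591% and 2.11%, 1.54% and 0.528%, and 9.42% and 0.451%. Row F was thus the wider row in dataset 1 and row G in dataset 3. An exact permutation test that flipped the signs of the 3 dataset differences gave p = 1 for the spread and p = 0.75 for the missing values, where 0.25 is the smallest p it can give. Arrays of spread over 0.5 stood in 5 pairs, at column 4 of dataset 1, columns 3 and 4 of dataset 2 and columns 4 and 9 of dataset 3. They are called wide below. For each gene named whose mean difference of row G minus row F moved by over 1.5 times without their pairs, that value is given as well, or it is said that too few pairs were left for one. The number of arrays limits the precision.

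**Figure D1:**
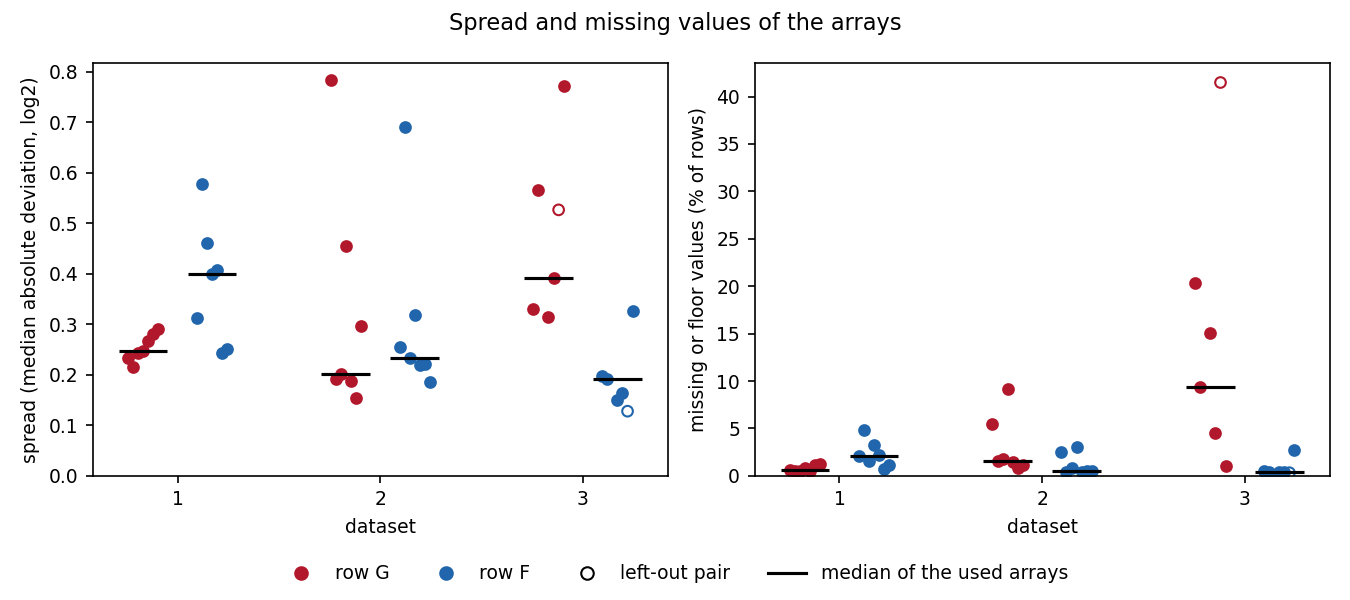
Spread of each array (median absolute deviation, log2, left) and share of its values missing or at the floor (%, right) by dataset, with row G in red, row F in blue, the left-out pair open and the median of the used arrays as a line. Row F was wider in dataset 1 and row G in dataset 3.

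No gene passed the test between row G and row F (0 of 13550 genes, 0%), while 1193 genes (8.8%) had an unadjusted p under 0.05, of which 719 (5.31%) were higher and 474 (3.5%) lower in row G. The gene whose rows did not overlap on any array was Cryab, which encodes alpha-B crystallin, a small heat shock protein abundant in oligodendrocytes. It was lower in row G in 19 of 19 pairs, by 1.18 ± 0.08 (2.27-fold, n = 3). Bcas1, a gene of myelinating oligodendrocytes and one of the markers given for this comparison, was also lower in 19 of 19 pairs, by 1.17 ± 0.47 (2.24-fold). By limma their adjusted p-values were 0.149 for Cryab and 0.273 for Bcas1. Without the 5 pairs that held a wide array Cryab was at -1.21 and Bcas1 at -1.11.

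The levels of Cryab on single arrays lay as follows. In dataset 1 they ran from -1.13 to -0.43 in row G, with a median of -0.64, and from 0.12 to 0.82 in row F, with a median of 0.49. In dataset 2 they ran from -0.91 to 0.01 in row G, with a median of -0.21, and from 0.17 to 1.23 in row F, with a median of 0.99. In dataset 3 the 5 row G arrays, in columns 3, 4, 6, 7 and 9, gave -0.81, -0.03, -1.28, -1.07 and -1.32, and the row F arrays 0.52, 0.45, 0.31, 0.47 and 0.11. Every row G array lay below every row F array, also across datasets, and Cryab was the only gene of the 13550 with this order (0.00738% of the genes); no gene had the opposite order. The dataset means were -1.14, -1.13 and -1.27. The smallest difference of a pair was -0.22, at column 9 of dataset 2, and the largest -1.62, at column 3 of dataset 1.

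The levels of Bcas1 overlapped between the rows. In dataset 1 they ran from -1.20 to -0.02 in row G (median -0.18) and from -0.54 to 1.33 in row F (median 0.74). In dataset 2 they ran from -1.11 to -0.36 in row G (median -0.63) and from -0.53 to 1.03 in row F (median -0.02). The dataset 3 values in row G, in the same column order as above, were -1.58, -1.02, -1.03, -1.50 and -2.68, and those in row F 0.06, 0.22, 0.39, 0.21 and -0.15. Dataset 3 thus had the lowest row G values and no overlap of the rows, and its mean difference of -1.71 was larger than those of dataset 1 (-0.97) and dataset 2 (-0.82). Of the 19 row G arrays 12 lay below the lowest row F array.

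**Figure D2:**
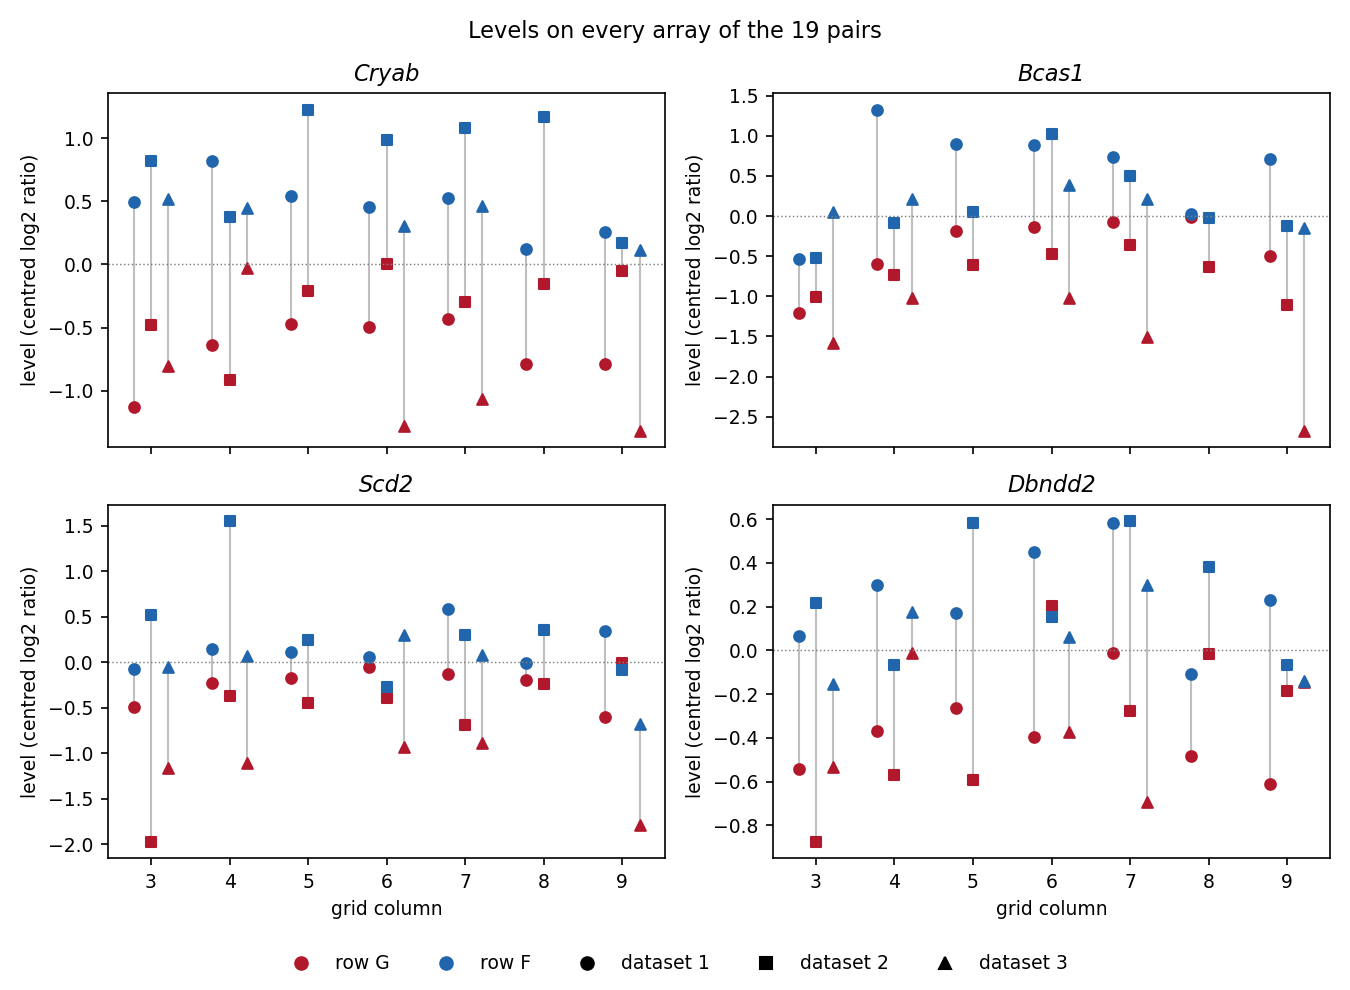
Levels of Cryab, Bcas1, Scd2 and Dbndd2 (centred log2 ratio, vertical axes) by grid column (horizontal axis) on the 38 arrays; red is row G, blue is row F, the marker shape is the dataset and a grey line joins a pair. Row G lay below row F in 19 of 19 pairs for Cryab and Bcas1 and in 18 of 19 for Scd2 and Dbndd2.

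In a fit that took the 19 column pairs as units, with the dataset as a random block, 13 genes passed (0.0959%), 10 of them lower (0.0738%) and 3 higher (0.0221%) in row G. Pairs of one dataset share their source, so these p-values rest on more units than there were harvests. The lower genes with a symbol were Cryab (limma, adjusted p = 4.2e-06), Bcas1 (adjusted p = 7.4e-04), Igfbp5 (adjusted p = 0.0244), Rnf13 (adjusted p = 0.0450), Dbndd2 (adjusted p = 0.0450) and Scd2 (adjusted p = 0.0478), and the other 4 lower and all 3 higher features had no gene symbol. Igfbp5, whose product binds insulin-like growth factors, was named for this count and lay outside the rule for named genes. Its levels ran from -0.98 to 0.08 in row G (median -0.27) and from -0.45 to 0.98 in row F (median 0.21), and it was lower in 19 of 19 pairs, by 0.62 ± 0.22. The rows overlapped, yet within each pair row G was the lower. Over all genes 5 were lower (0.0369%) and 2 higher (0.0148%) in every measured pair.

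Which datasets entered decided the count of the test over datasets. Without dataset 1 it called 339 genes, 218 higher and 121 lower, without dataset 2 it called 8, all higher, and without dataset 3 it called 0, with 633 genes at an unadjusted p under 0.05. Across the 13550 genes, which are not independent, the difference in dataset 1 correlated with that in dataset 2 at r = -0.0284 and with that in dataset 3 at r = 0.0763, and datasets 2 and 3 correlated at r = 0.348. Without the pairs that held a wide array, the last value was 0.109 over 12402 genes. For Cryab the adjusted p was 0.00472 without dataset 1, 0.0875 without dataset 2 and 0.298 without dataset 3 (limma), at differences between -1.20 and -1.13.

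The myelin and oligodendrocyte list, which holds proteins of the myelin sheath and enzymes of the cells that make it, had 15 measured genes of 54 symbols. The other symbols of the list were not among the genes tested. All 15 had a mean below 0, with a median of -0.53 against 0.01 over all genes, and 12 were lower in row G in 3 of 3 datasets, where 14.6% of all genes were. None passed the test over datasets, and 10 of the 15 were lower at an unadjusted p under 0.05, where 3.5% of all genes were. The list's median was -0.43, -0.59 and -0.57 in datasets 1 to 3. Within single pairs the median over the measured members lay below 0 in 19 of 19, from -1.26 to -0.0033, while the median over all genes lay below 0 in 8 of 19. The pair nearest 0 was column 9 of dataset 3, whose row G array was wide. Without the pairs that held a wide array the list's median was -0.61, with 12 of 14 genes lower in 3 of 3 datasets.

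Of the membrane and sheath genes, Tspan2, a tetraspanin of oligodendrocytes, differed by -1.05 ± 0.63 (lower in 16 of 19 pairs). Its dataset means were -0.87, -0.53 and -1.75, and the last rested in part on column 7, where row G stood at -3.91 and row F at 0.50. Lpar1, a receptor for lysophosphatidic acid, differed by -0.41 ± 0.16, and Gsn, which encodes the actin-severing protein gelsolin, by -0.53 ± 0.28. Septin4, a septin of the cytoskeleton, differed by -0.53 ± 0.08 and was lower in 17 of 19 pairs. Of the lipid genes, Scd2, a desaturase that makes monounsaturated fatty acids, differed by -0.84 ± 0.36 and was lower in 18 of 19 pairs. Its levels ran from -1.98 to -0.01 in row G (median -0.45) and from -0.68 to 1.55 in row F (median 0.11), so the rows overlapped, although every row G array lay below 0. Gltp, a glycolipid transfer protein, differed by -0.33 ± 0.27.

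Ndrg1, a stress-responsive gene of myelinating cells, differed by -0.95 ± 0.33 (15 of 18 pairs), and Qdpr, which regenerates tetrahydrobiopterin, by -0.58 ± 0.19 (15 of 19 pairs). Dbndd2, which encodes a dysbindin domain protein, differed by -0.54 ± 0.12 and was lower in 18 of 19 pairs; its highest pair difference was 0.05. Gamt, the second enzyme of creatine synthesis, differed by -0.24 ± 0.24. The other 3 members differed in sign between datasets. Gatm, the first enzyme of creatine synthesis, had 0.05, -0.86 and -0.38, the carbonic anhydrase gene Car2 0.05, -0.10 and -0.56, and Fez1, a kinesin adaptor gene, -0.13, 0.16 and -0.37. The differences within the list thus ranged from -1.18 to -0.12. The 4 measured genes of oligodendrocyte precursors, the dividing cells that give rise to oligodendrocytes, had a median of 0.06 and 0 of 4 were lower in 3 of 3 datasets. With the wide arrays' pairs left out, Gltp was at -0.18, Gamt at -0.49, Gatm at -0.62, Fez1 at -0.25 and Car2 at 0.03, and Ndrg1 had too few pairs left.

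**Figure D3:**
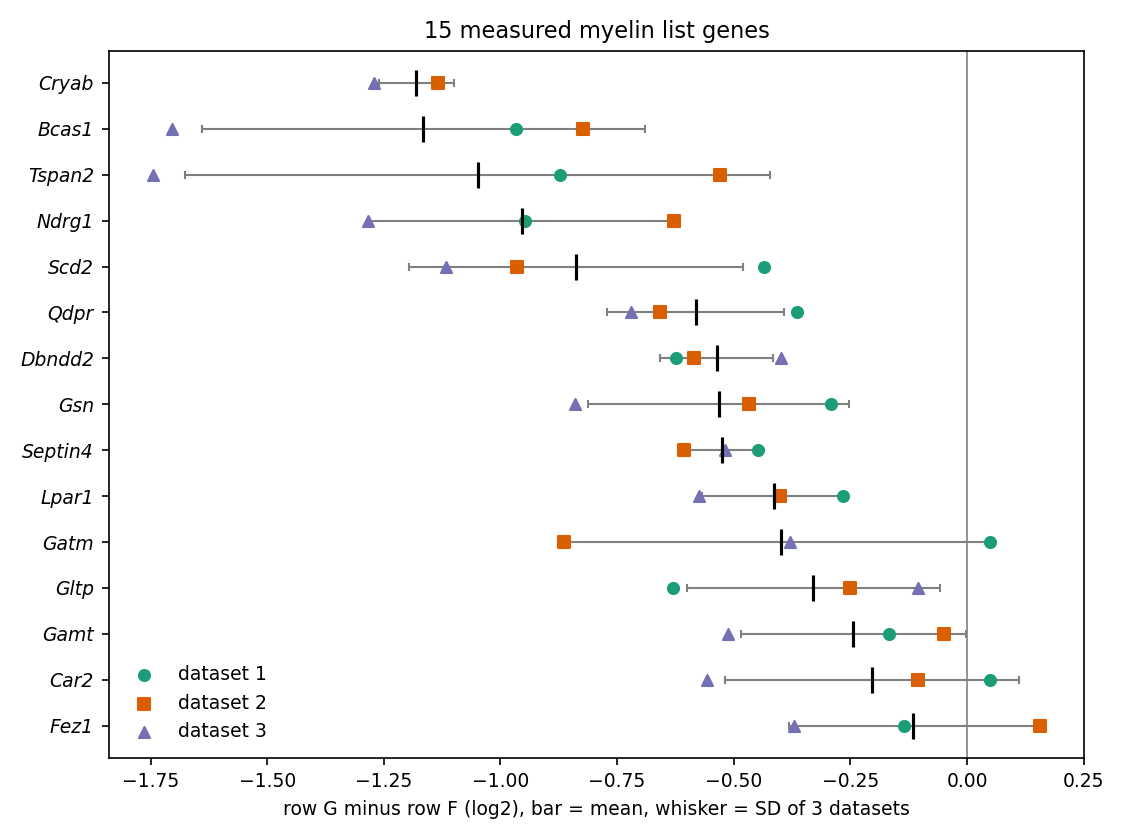
Row G minus row F (log2, horizontal axis) for the 15 measured genes of the myelin and oligodendrocyte list, with 1 coloured symbol per dataset, a black bar for the mean and a whisker for the SD of the 3 datasets. All 15 means lay below 0, from -1.18 for Cryab to -0.12 for Fez1, and 12 genes were below 0 in all 3 datasets.

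Promoters are shown for 2 of the members that were lower in 3 of 3 datasets, to let the sequence stand beside the difference. RefSeq's promoter table (build GRCm38.p6) held 7 of these 12 genes, with 15 windows of 250 bases before an annotated start. The letters ACAAAG, a core recognised by SOX factors such as the oligodendrocyte regulator SOX10, were searched on both strands; they stood in 4 of the 15 windows, in 3 genes, and in 16.5% of all 32851 windows. The Tspan2 window lies at chr3:102734965-102735214, plus strand, and the Lpar1 window at chr4:58499404-58499653, minus strand. Both read 5′ to 3′, and capitals mark the match. It begins 42 bases before the start that follows the window in Tspan2 and 153 in Lpar1. Each of these windows lies downstream of another annotated start of its gene. The other Tspan2 window, at chr3:102734520-102734769, lies upstream and has no match. Lpar1 has another window with and another without one.
Tspan2: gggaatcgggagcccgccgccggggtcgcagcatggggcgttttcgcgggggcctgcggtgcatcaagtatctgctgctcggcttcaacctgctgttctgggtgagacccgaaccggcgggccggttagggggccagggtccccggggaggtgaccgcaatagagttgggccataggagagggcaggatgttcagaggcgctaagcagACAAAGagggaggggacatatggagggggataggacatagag
Lpar1: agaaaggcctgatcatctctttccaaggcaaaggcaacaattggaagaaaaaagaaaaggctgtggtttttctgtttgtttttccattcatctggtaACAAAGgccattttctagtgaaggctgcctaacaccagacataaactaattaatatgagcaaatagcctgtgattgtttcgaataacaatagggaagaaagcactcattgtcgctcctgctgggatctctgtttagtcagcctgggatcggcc
A match is a description of these letters only.

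Among cortical neuron lists, the upper layer list had 10 measured genes of 38 symbols, with a median of 0.31 (0.16, 0.26 and 0.27 in datasets 1 to 3). Of these 4 were higher in row G in 3 of 3 datasets, where 15.5% of all genes were, 1 was lower, and 0 passed the test. Gucy1a1, a subunit of the receptor for nitric oxide, ran from -1.0 to 1.54 in row G (median 0.10) and from -1.25 to 1.01 in row F (median -0.57). The rows overlapped, and row G was higher in 16 of 19 pairs, by 0.58 ± 0.14 (limma, adjusted p = 0.512). Otof, which encodes the membrane protein otoferlin, differed by 0.74 ± 0.85 over 18 pairs, with 1.72 in dataset 3 alone. With floor values kept rather than treated as missing, Otof was at 0.21. Nectin3, a cell adhesion gene, differed by 0.22 ± 0.15. Pou3f1, a POU-domain transcription factor gene, differed by -0.56 ± 0.68. Nectin3 was at 0.39 and Pou3f1 at -0.91 without the pairs that held wide arrays.

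Mef2c, the transcription factor gene given as a marker, was among the 4 higher genes. Its levels ran from -0.29 to 1.88 in row G (median 0.50) and from -0.76 to 1.00 in row F (median 0.20), and row G was higher in 14 of 19 pairs. The difference was 0.35 ± 0.41, less than the spread between datasets, which had 0.82, 0.19 and 0.04 (limma, adjusted p = 0.649). The pairs in dataset 1 were all above 0, from 0.13 at column 9 to 1.57 at column 7. In datasets 2 and 3 column 3 was highest, at 1.24 and 1.00, and column 9 was lowest, at -0.49 and -1.04.

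Dkk3, which encodes a secreted Dickkopf family protein and is the other marker given, did not take one direction. In 18 pairs it was higher in row G in 6 and lower in 12, with dataset means of 0.13, -0.28 and -1.02. Its row F levels ran from 0.57 to 1.76 (median 1.41) and its row G levels from -3.30 to 1.82 (median 1.26). The level of -3.30 was at G9 of dataset 3, a wide array, and without the pairs that held such arrays the mean difference was -0.18, against -0.39 with them (limma, adjusted p = 0.666). Of the 3 markers given, Bcas1 alone differed in 1 direction in every pair.

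The deep layer list had 15 measured genes of 43 symbols and a median of -0.07. Of these 2 were lower and 2 higher in 3 of 3 datasets, shares close to those of all genes, and 0 passed. Tle4, a corepressor gene of deep layer neurons, differed by -0.73 ± 0.65 and was lower in 15 of 19 pairs. In dataset 3 its row G levels, from -2.01 to 0.10, lay below its row F levels, from 0.79 to 1.10, while the rows overlapped in the other datasets. Crim1, a transmembrane protein gene of corticospinal neurons, differed by -0.36 ± 0.07 (-0.15 without the pairs with wide arrays). Tshz2, a zinc finger gene, differed by 0.37 ± 0.31 and Foxo1, a forkhead factor gene, by 0.19 ± 0.17 (0.00 without those pairs). Of the 12 measured genes of cortical projection neurons in general 4 were lower and 1, Arpp21, higher in 3 of 3 datasets (0.45 ± 0.17). Over all genes 14.6% were lower and 15.5% higher in this way.

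The meninges list, genes of the fibroblasts that cover the brain, had 16 measured genes of 39 symbols and a median of 0.17, with -0.15, 0.33 and 0.31 in datasets 1 to 3. Of these 3 were higher in 3 of 3 datasets, a share close to the 15.5% of all genes. None was lower, where 14.6% of all genes were, and 0 passed. Serping1, which encodes the complement C1 inhibitor, ran from -1.59 to 1.22 in row G and from -5.76 to 1.26 in row F, and differed by 1.02 ± 0.48 over 17 pairs. The low end in row F gave 1 pair, column 9 of dataset 1, a difference of 6.62, where the next highest of that dataset was 1.40. Col6a1, a collagen gene, differed by 0.36 ± 0.10 and was higher in 15 of 19 pairs, and Slc6a13, a GABA and taurine transporter gene, by 0.32 ± 0.17. Without the pairs that held wide arrays Slc6a13 was at 0.09, Serping1 had too few pairs left, and the median of the list was 0.09, over 15 genes.

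Of the other cell types, the astrocyte list (19 genes) had a median of -0.08, with 6 genes lower and 4 higher in 3 of 3 datasets. Over all genes 14.6% were lower and 15.5% higher in this way. The leading astrocyte member Cst3, which encodes the protease inhibitor cystatin C, was lower in 17 of 19 pairs, by 0.55 ± 0.11. The 6 measured microglial genes had a median of -0.10, and C1qc, a chain of complement C1q, differed by -0.46 ± 0.13. The 13 blood vessel genes had a median of -0.02, the 4 inhibitory neuron genes 0.12, with Sst, the somatostatin gene, at -0.31 ± 0.08, and the 7 ependymal genes -0.18, with Dynlrb2, a dynein light chain gene of cilia, at -0.44 ± 0.11. The choroid plexus list (3 genes) had a median of -0.01 and the red blood cell list (2 genes) 0.06; their leading members Ttr, the transthyretin gene (-0.19 ± 0.43), and the globin gene Hbb-b1 (0.10 ± 0.26) differed in sign between datasets. Without the pairs that held wide arrays Ttr was at -0.38, and the medians were 0.02 for the inhibitory neuron, -0.19 for the choroid plexus and -0.08 for the red blood cell list. The part of these cell types in the other differences was not tested.

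Genes of other brain regions in the section showed medians near 0: 0.07 for the striatal list (11 genes), 0.00 for the hippocampal (8 genes), 0.01 for the thalamic (9 genes) and -0.04 for the hypothalamic list (6 genes). Their leading members were Ppp1r1b, which encodes the dopamine-regulated phosphatase inhibitor DARPP-32 (-0.52 ± 0.28), the desmosomal gene Pkp2 (-0.42 ± 0.36), the Wnt pathway factor gene Lef1 (0.64 ± 0.25) and the neuropeptide gene Cartpt (0.49 ± 0.60). None of these 4 passed the test.

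The housekeeping lists lay mostly below 0. Of the 73 ribosomal protein genes 51 were lower in row G in 3 of 3 datasets, against 14.6% of all genes, and 0 were higher; their median was -0.24, with -0.34, -0.09 and -0.26 in datasets 1 to 3. The largest t was that of Rpl10 (-0.43 ± 0.21, lower in 18 of 19 pairs). Of the 59 oxidative phosphorylation genes 20 were lower and 3 higher, with a median of -0.17, and Cox7a2l, of the respiratory chain's assembly, differed by -0.54 ± 0.10 (-0.34 without the pairs with wide arrays). Of the 19 chaperone genes 9 were lower, with a median of -0.08; Cryab is one of them and belongs to the myelin list as well. None passed the test in any of the 3 lists, and 5, 6 and 2 genes had an unadjusted p under 0.05, all lower. Of all genes 8.8% had such a p, and 3.5% had it and were lower.

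Of the remaining lists, the immediate early genes (15 genes) had a median of 0.07. Of these 4 were higher in 3 of 3 datasets, where 15.5% of all genes were. Ptgs2, the inducible cyclooxygenase gene, differed by 0.74 ± 0.70. Without the pairs that held wide arrays the median of the immediate early genes was -0.02 and Ptgs2 had too few pairs left. The axon list (13 genes) had a median of -0.17, and its leading member Sncg, the gamma-synuclein gene, went the other way, at 0.76 ± 0.22; 1 of its pairs stood at 6.38, and without the pairs with wide arrays it was 0.09. The synaptic vesicle list had 9 genes and a median of -0.17, the calcium and calmodulin list 12 genes and -0.08. In each, 2 genes were lower in 3 of 3 datasets, where 14.6% of all genes were. Sypl, a synaptophysin relative, differed by -0.33 ± 0.18 and the calmodulin gene Calm2 by -0.31 ± 0.17. Sypl was at -0.15 and Calm2 at -0.09 without the pairs that held wide arrays. The precursor list was led by Cacng4, an AMPA receptor auxiliary subunit gene (0.38 ± 0.37, and 0.17 without those pairs).

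**Figure D4:**
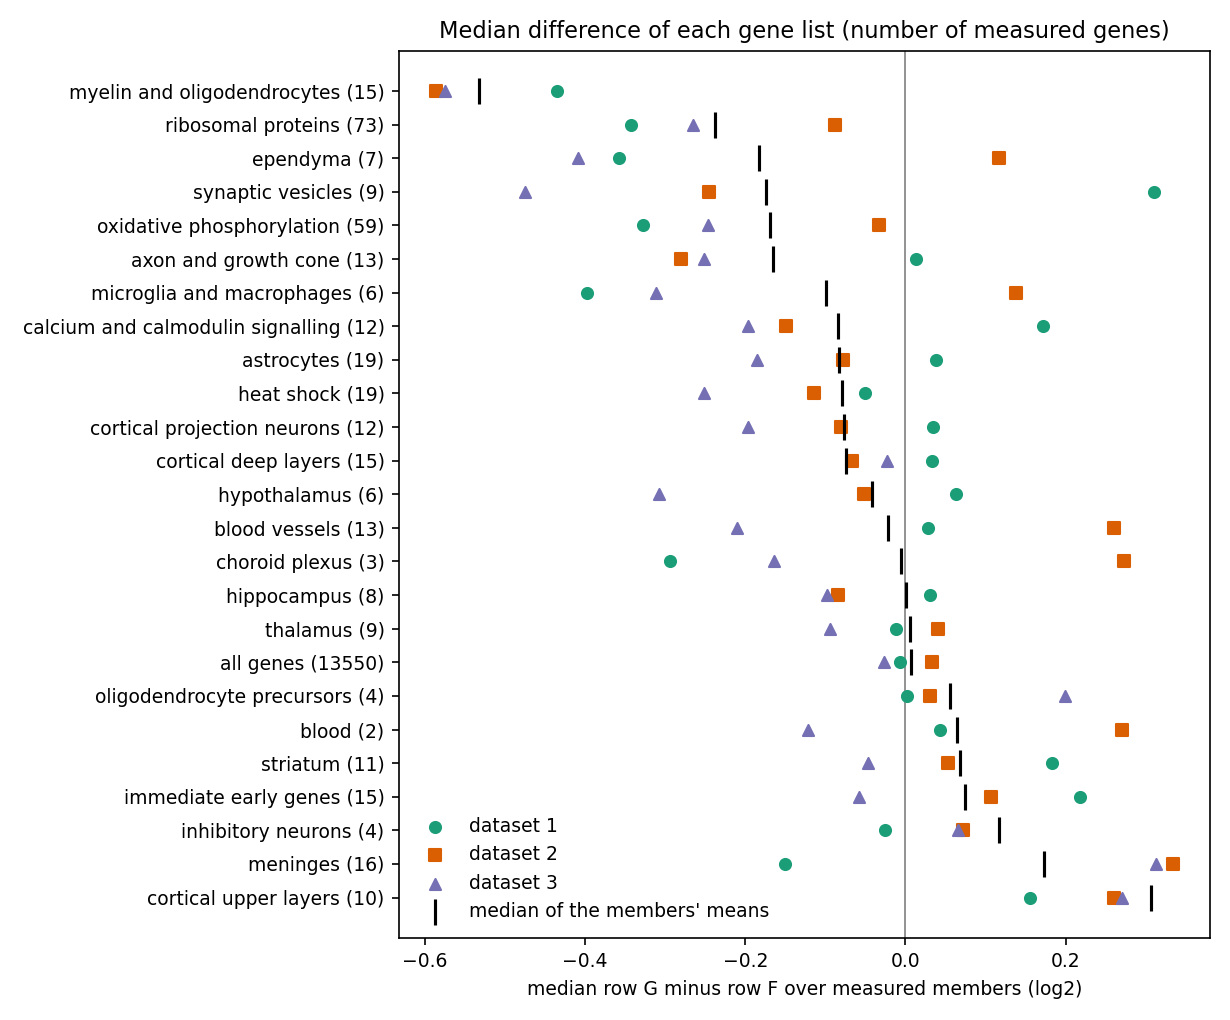
Median row G minus row F difference (log2, horizontal axis) over the measured genes of each list, with the number of genes in brackets; coloured symbols are the 3 datasets and the black bar is the median of the genes' means. The myelin and oligodendrocyte list lay lowest, at -0.53, and the cortical upper layer list highest, at 0.31, each on 1 side of 0 in all 3 datasets.

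Genes were also taken by the smallest p rather than by list, 10 in each direction among genes with a symbol and 1 sign in 3 of 3 datasets. On the lower side these were, beside Cryab, Bcas1 and Ndrg1, Rnf13, a ubiquitin ligase gene of endosomal membranes (-0.98 ± 0.25), Pcmtd2, a methyltransferase-related gene (-0.90 ± 0.33), Manf, which encodes a growth factor of the endoplasmic reticulum (-0.89 ± 0.10), and Qars, the glutaminyl-tRNA synthetase gene (-0.87 ± 0.27). Mtch2, of the mitochondrial outer membrane, had -0.86 ± 0.07, the vasopressin-induced gene Avpi1 -0.77 ± 0.08 and Cdk7, a kinase gene of the transcription machinery, -0.73 ± 0.10. Rnf13 was lower in 18 of 19 pairs, and the other 6 in shares from 12 of 17 (Avpi1) to 17 of 19 (Manf and Pcmtd2). Without the pairs that held wide arrays Manf was at -0.38, Mtch2 at -0.49, Pcmtd2 at -0.50 and Cdk7 at -0.39, while Rnf13 was at -0.78, and Qars and Avpi1 had too few pairs left. The adjusted p-values of the 7 ran from 0.273 to 0.439 (limma).

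On the higher side, in order of their means, these were Psme3ip1, which binds a proteasome activator (1.46 ± 0.30), Adpgk, an ADP-dependent glucokinase gene (1.32 ± 0.34), Knop1, of the nucleolus (1.25 ± 0.72), and Adamts10, a secreted metalloprotease gene (1.20 ± 0.21). The others were Hspa13, of the heat shock 70 family (1.17 ± 0.54), Msantd1, a Myb/SANT domain gene (1.15 ± 0.09), Slc25a21, a mitochondrial carrier gene (1.12 ± 0.40), Rab1a, a GTPase gene of the secretory pathway (1.12 ± 0.37), Serping1 and Dglucy, the D-glutamate cyclase gene (0.93 ± 0.22). Their adjusted p-values ran from 0.149 to 0.353 (limma).

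Several of these means rested on single pairs. Psme3ip1 ran from -2.88 to 5.85 in row G (median 0.97) and from -3.69 to 1.43 in row F (median -0.79), with a difference of 7.40 at column 3 of dataset 2, and was higher in 14 of 19 pairs. Adpgk had a difference of 9.64 in the same pair. Adamts10 was 1.20 over its 18 measured pairs, with single pairs at 5.00 (column 9 of dataset 1) and 4.05 (column 7 of dataset 3). With floor values kept rather than treated as missing, Adamts10 was at 0.21. Without the pairs that held wide arrays its row had too few pairs left. The value of -0.09 under that setting came from another row of the gene. Psme3ip1 had 0.67, Adpgk 0.82 and Msantd1 0.76 without the pairs with wide arrays, and Slc25a21 and Hspa13 had too few pairs left. Msantd1 had the smallest SD over the datasets of the 10, 0.09, and was higher in 17 of 19 pairs, from -0.96 to 3.17, with dataset means of 1.06, 1.16 and 1.24. Over the genes measured in every pair, Psme3ip1, Msantd1 and 1 unnamed feature were called higher and Cryab lower, each at an adjusted p = 0.0459 (limma).

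**Figure D5:**
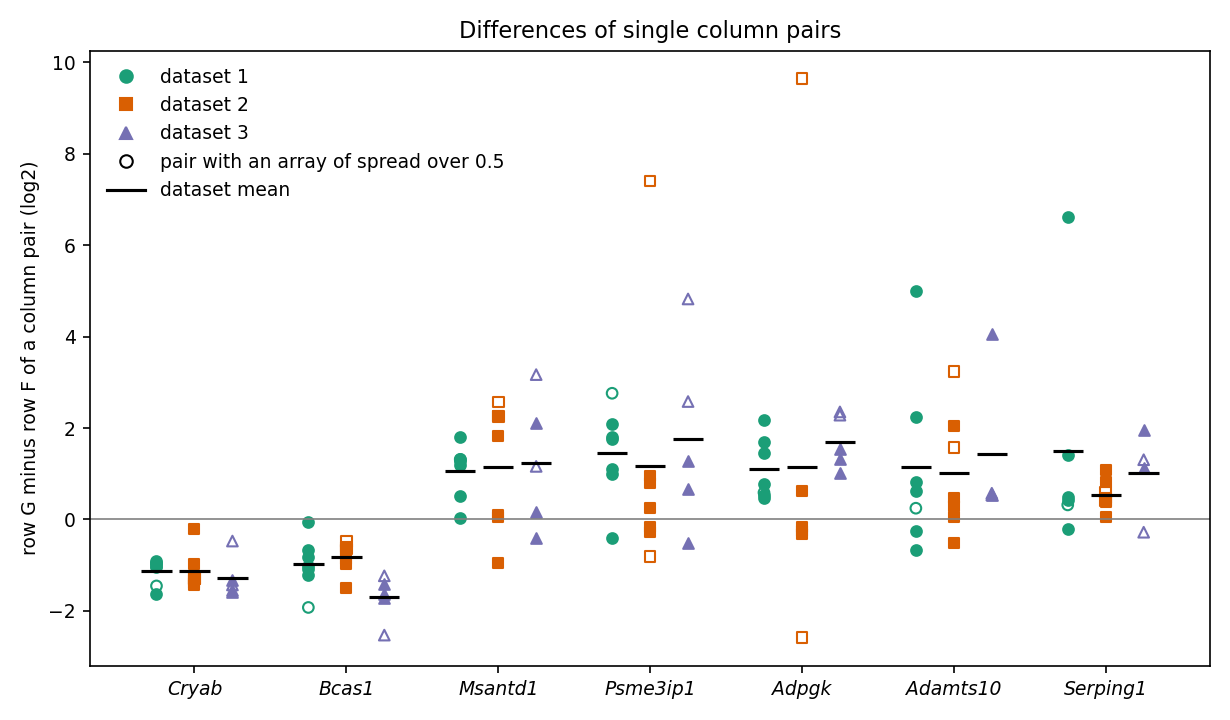
Row G minus row F (log2, vertical axis) in every column pair for 7 genes (horizontal axis), by dataset; open symbols are pairs that held an array of spread over 0.5, and black lines are dataset means. Cryab and Bcas1 lay below 0 in all 19 pairs, while single pairs reached 7.40 for Psme3ip1 and 9.64 for Adpgk.

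Rows F and G together were set against rows A to E (144 arrays) to describe what tissue they held. The sign of the ratios was inferred from cortical genes of this same comparison, so it is no independent check of the tissue. Of 14574 genes 18 passed (0.124%), 12 higher (0.0823%) and 6 lower (0.0412%) in rows F and G. The highest were Vxn, a gene of excitatory forebrain neurons (1.90 ± 0.12, limma adjusted p = 0.00340), Dkk3 (1.51 ± 0.20, adjusted p = 0.00833) and the immediate early gene Egr1 (1.29 ± 0.25, adjusted p = 0.0212). The lowest with a symbol were Syndig1l, a striatal gene (-1.69 ± 0.26, adjusted p = 0.00833), Tcf7l2, a factor gene of the thalamus (-1.29 ± 0.31, adjusted p = 0.0278), and Ppp1r1b (-1.17 ± 0.10, adjusted p = 0.0179). Without dataset 2 limma called 0 genes here, with 947 at an unadjusted p under 0.05. Mef2c differed by 0.47 ± 0.23 and Bcas1 by -0.34 ± 0.24, and neither passed. Of the lists, 1 of 10 upper layer, 1 of 15 deep layer and 2 of 12 projection neuron genes passed, all higher in rows F and G, and 1 of 11 striatal and 1 of 9 thalamic genes, both lower. The medians of the whole lists were 0.03 for the upper layers, 0.18 for the deep layers and 0.38 for the projection neurons. They were -0.19 for the striatal and -0.21 for the thalamic list, against 0.00 over all genes. No label or list shows that row G is the brain's surface.

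The row difference was then compared with the step one row further in, from row E to row F, in the 18 columns with an array in row E of the same dataset. Both steps share the row F arrays. Cryab stepped by -0.38 ± 0.32 from row E to row F and by -1.15 ± 0.11 from row F to row G in these columns. Bcas1 had -0.60 ± 0.52 and -1.18 ± 0.46, and the median of the myelin list -0.35 ± 0.13 and -0.53 ± 0.08, so both steps were downward on average. Dkk3 had 1.05 ± 0.09 and then -0.41 ± 0.55, and Vxn 1.53 ± 0.17 and then -0.41 ± 0.59: both were high from row F on. Ttr stepped by -2.56 ± 0.27 from row E to row F and by -0.36 ± 0.71 from row F to row G. Scd2 had -0.07 ± 0.16 and -0.84 ± 0.36, and the test of the difference between its steps gave an adjusted p = 0.498 (limma).

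No gene passed a test of the difference between the steps (0 of 13255), where 1176 (8.87%) had an unadjusted p under 0.05. The 3 genes of smallest p in each direction were Ttr (2.20 ± 0.47, limma adjusted p = 0.112), Slc25a21 (1.98 ± 0.53) and Psme3ip1 (1.82 ± 0.42) on the higher side, and Vxn (-1.93 ± 0.43, adjusted p = 0.179), the potassium channel subunit gene Kcnab3 (-1.76 ± 0.61) and Shmt2, a mitochondrial enzyme gene of one-carbon metabolism (-1.64 ± 0.27), on the lower. For Cryab the difference between the steps was -0.77 ± 0.21 (adjusted p = 0.458). Without dataset 1 this test called 430 genes, 252 higher and 178 lower. That fit, too, rests largely on the spread that limma borrows from other genes.

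Along the row, the difference of Cryab was largest at column 3, -1.42 ± 0.18 (n = 3), and smallest at column 9, -0.90 ± 0.62 (n = 3), a gap smaller than the spread at column 9. The median of the myelin list was lowest at column 7, -0.95 ± 0.28, and highest at column 9, -0.29 ± 0.33 (n = 3 each). Whether the row difference changed between the inner columns 5 to 7 and the outer columns 3, 4, 8 and 9 was tested for every gene, and 0 of 13550 passed, with 556 (4.1%) at an unadjusted p under 0.05. For Cryab the inner minus outer value was -0.15 and for Bcas1 -0.03 (limma, adjusted p = 0.950 and 0.987). The 3 of smallest p in each direction were D14Ertd670e (1.19 ± 0.12), Dio3, a thyroid hormone deiodinase gene (0.99 ± 0.25), and Sel1l, of protein degradation at the endoplasmic reticulum (0.93 ± 0.07), on the higher side, and Ccdc130 (-1.33 ± 0.36), Tmem150a (-1.27 ± 0.26) and the cytokine gene Il16 (-1.12 ± 0.16) on the lower, each at an adjusted p = 0.926.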

How the data were processed

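The authors deposited 1 table of log2 ratios, voxel against whole brain per the labels; the scanner settings, the normalization and the numerator are not stated in those sources. It had 20847 rows, of which 99.9% had a median within 0.001 of 0, so rows had been centred; 0.483% of values were at a floor of -6.64 and 1.93% missing. Floor values were treated as missing, 20 control rows were left out and each array was centred on its median (a shift of at most 0.353). Rows measured in both voxels of at least 80% of the pairs of each dataset were kept (16835). Rows with 1 symbol were averaged by gene, giving 13550 genes, 7502 with a symbol; of 13164 rows with 1 symbol in the platform annotation 12982 matched the mouse gene table, 317 had several and 7299 none.

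Differences within a dataset and column were averaged per dataset and tested with limma 3.58.1 in R 4.3.3 (lmFit, eBayes). The dataset pairs the rows because same-numbered voxels come from the same harvest. On simulated data the test called 98% of differences of -2, 78% of differences of 1 and 0.0225% of unchanged genes. The simulated noise was normal, independent between genes and without wide arrays. These shares therefore do not show how often real differences of these sizes would pass. Correlations of 2 arrays of a dataset ran from -0.415 to 0.564 (median 0.144), with 0.441% of 227 under -0.3; as dyes are labelled and brain positions can oppose each other, no sign was turned. No array was taken for a duplicate. Members, gene lists and tests were chosen with earlier results of these data known.

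The rule for named genes took the markers Dkk3, Mef2c and Bcas1, per direction 10 genes (3 for the other comparisons) of 1 symbol and 1 sign in 3 of 3 datasets, those that passed first and otherwise by the smallest p, the member of each list with the largest t, and members of the upper layer, deep layer, myelin and meninges lists. Other settings tried were no centring, quantile normalization, floor values kept, other filters on missing values, limited values, medians over columns, other sets of pairs, rows tested singly, leaving out each dataset, and the fits without the block or with pairs as units. Dropping wide arrays, equal spread of arrays and centring within blocks of row identifiers were added after seeing the data.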

Additional observations from a re-analysis of the deposited data

Results flagged for a closer look

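Single pairs stood apart from the other pairs of their dataset in 15 groups of values, and single arrays in 2, of 78 groups tested by Dixon's criterion; chance gives about 1 in 20. Among differences of row G minus row F at column 3 of dataset 2, Adpgk stood at 9.64 (next 0.62), Psme3ip1 at 7.40 (next 0.95), Dglucy at 6.58 (next 0.86), Knop1 at 5.72 (next 0.65) and Hspa13 at 4.52 (next 0.60); the row G array of this pair had a spread of 0.785. Serping1 stood at 6.62 at column 9 of dataset 1 and Adamts10 at 4.05 at column 7 of dataset 3. At column 9 of dataset 3, where row G had a spread of 0.771, Dkk3 stood at -3.87, Manf at -3.14 and Rnf13 at -2.33. Manf also stood apart at column 4 of dataset 1, at -2.78, and Qars at column 7 of dataset 1, at -3.76, and at column 4 of dataset 2, at -2.31.

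For Cryab the pairs that stood apart were the small ones, -0.22 at column 9 of dataset 2 (next -0.98) and -0.47 at column 4 of dataset 3 (next -1.33). Among arrays, F4 of dataset 2 had a spread of 0.691 where the next row F array of that dataset had 0.319, and F9 of dataset 3 had 0.327 where the next had 0.197. The part of these arrays in the genes' values was not tested beyond the values given without the pairs of wide spread.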

How the results depend on the processing

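For row G against row F the test called 0 genes, and 0 under 14 of the 16 other settings that kept all 3 datasets, with 262 to 1523 genes at an unadjusted p under 0.05. It called 4 genes among those measured in every pair, 13 with column pairs as units, and from 0 to 339 when 1 dataset was left out. Without the replicate block, with dataset means of the rows taken as independent groups, 262 genes were at an unadjusted p under 0.05 and 0 passed. Cryab stayed between -1.34 and -1.13 and Bcas1 between -1.34 and -0.89 over the settings, with adjusted p from 4.2e-06 to 0.998 and from 7.4e-04 to 0.998. The direction turned for Ttr with columns 3, 4, 6, 7 and 9 in every dataset (0.0588) and with 1 dataset left out (from -0.396 to 0.0298), for Fez1 with 1 dataset left out (from -0.253 to 0.0107), and for Car2 by the median over columns (0.0241), without the pairs of wide arrays (0.0302) and with arrays scaled to the same spread (0.0168). Without the pairs of wide arrays it also turned for Foxo1 (-0.0025). Adamts10 had -0.0942 under that setting, but from another row of the gene than in the main test. The causes were not tested. The difference between the steps called 2 genes without centring, 1 after quantile normalization and from 0 to 430 with 1 dataset left out. Rows F and G against rows A to E called 18 genes, 31 without centring, 32 after quantile normalization, 0 with floor values kept, and from 0 to 129 with 1 dataset left out. The inner against outer columns called 0 under each of 6 other settings. With 3 datasets the spread of a gene is poorly known, which limits every test here.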

Other observations

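Rows of the table fell into blocks of row identifiers whose median difference between rows G and F was not the same: it ran from -0.18 to 0.22 over blocks of 1000 consecutive identifiers. In dataset 1 the same blocks had -0.05 and 0.06, in dataset 2 -0.19 and 0.26, and in dataset 3 -0.31 and 0.37. With each array centred within such blocks, a setting chosen after seeing the data, Cryab was at -1.23, Bcas1 at -1.19 and the myelin list at a median of -0.59.

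Of the features without a gene symbol, vm019768 was lower in row G in 18 of 18 pairs, by 0.99 ± 0.02, from -1.74 to -0.32, and vm013873 was higher in 19 of 19 pairs, by 0.65 ± 0.04, from 0.06 to 1.12. Both were chosen after their values were seen. Their spread over the datasets was small beside their differences, and the rows overlapped on single arrays.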
